A study of Mus musculus with 28 samples.

Results

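Levels of 9 chemokine genes were read in CD4+ T cells of the mouse small intestinal lamina propria, the connective tissue under the gut epithelium. The genes are Xcl1, Ccl20, Cxcl3, Cxcl2, Ccl3, Ccl4, Ccl5, Ccl1 and Cxcl10, taken by symbol from the 25124 genes of the deposited table, and each symbol matched 1 row. They were not chosen blind: the list was selected on measured TPM of these libraries, since Xcl1, Ccl20 and Cxcl3 stood at the ends of the contrast of germ-free with colonised mice after treatment. That contrast is therefore given for all 9 as values with no test. All mice carried the T-bet-ZsGreen reporter, in which a fluorescent protein reports the T cell factor T-bet, and cells were sorted as live events positive for CD45, CD90.2, TCRb and CD4. Mice were colonised (SPF, specific-pathogen-free) or raised with no microbes (GF, germ-free). They had received aCD3, an antibody that binds the signalling chains next to the T cell receptor, or a control antibody of its isotype. The 28 libraries comprised 6 SPF isotype (3 female, 3 male), 6 SPF aCD3 (3 female, 3 male), 10 GF isotype (5 female, 5 male) and 6 GF aCD3 (1 female, 5 male), named below by sex letter and replicate number. The dose, the time after injection and the age of the mice are not given in the sources used here, and no group without T-bet-ZsGreen was used.

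Chemokines are small secreted proteins that draw cells along a gradient through receptors on the responding cell, so a T cell that makes them calls in other cells rather than moving itself. Activated T cells are known sources of Ccl3, Ccl4, Ccl5 and Xcl1, which act on macrophages, other T cells and dendritic cells. Ccl20 draws Ccr6-bearing lymphocytes to gut lymphoid tissue, Cxcl2 and Cxcl3 draw neutrophils, and Cxcl10 is an interferon-induced ligand of Cxcr3 on Th1 cells. Many chemokine genes are switched on through binding sites for the NF-kappaB family next to their start.

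The 250 bases before the start of 5 of the genes are shown because letters of the NF-kappaB motif (kappaB) stand in genes that rose after aCD3 (Cxcl3, Ccl20), in 1 that fell (Cxcl10) and in 1 that did not pass the test (Cxcl2), and not in Ccl3, which rose. Sequences are those of RefSeq on build GRCm38.p6, 5′ to 3′ on the strand of the gene. Capitals mark matches, on either strand, to the kappaB motif, to the AP-1 motif TGANTCA or to the interferon-response motif (GAAA, any 2 bases, GAAA). The windows are chr5:90785851-90786100 (+) for Cxcl3, chr5:90903649-90903898 (+) for Cxcl2, chr1:83116516-83116765 (+) for Ccl20, chr5:92348890-92349139 (-) for Cxcl10 and chr11:83649379-83649628 (-) for Ccl3.
Cxcl3: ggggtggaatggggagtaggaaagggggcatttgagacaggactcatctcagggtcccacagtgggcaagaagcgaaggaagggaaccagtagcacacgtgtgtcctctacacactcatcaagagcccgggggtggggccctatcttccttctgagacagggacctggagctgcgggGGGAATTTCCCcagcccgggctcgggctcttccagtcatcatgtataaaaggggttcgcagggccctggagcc
Cxcl2: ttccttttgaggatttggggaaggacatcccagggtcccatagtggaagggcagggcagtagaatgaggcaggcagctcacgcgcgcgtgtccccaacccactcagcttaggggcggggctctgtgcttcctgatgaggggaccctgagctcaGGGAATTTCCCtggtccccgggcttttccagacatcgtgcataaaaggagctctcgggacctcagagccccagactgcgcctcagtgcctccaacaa
Ccl20: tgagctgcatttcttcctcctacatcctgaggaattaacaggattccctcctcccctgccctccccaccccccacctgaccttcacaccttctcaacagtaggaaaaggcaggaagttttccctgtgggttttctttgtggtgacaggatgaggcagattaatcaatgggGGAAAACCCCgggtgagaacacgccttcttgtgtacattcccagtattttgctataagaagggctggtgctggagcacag
Cxcl10: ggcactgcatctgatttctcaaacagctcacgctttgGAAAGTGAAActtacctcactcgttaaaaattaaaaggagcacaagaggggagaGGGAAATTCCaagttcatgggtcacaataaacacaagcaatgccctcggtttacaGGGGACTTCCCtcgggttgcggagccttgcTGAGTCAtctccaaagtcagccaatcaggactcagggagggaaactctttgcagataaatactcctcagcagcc
Ccl3: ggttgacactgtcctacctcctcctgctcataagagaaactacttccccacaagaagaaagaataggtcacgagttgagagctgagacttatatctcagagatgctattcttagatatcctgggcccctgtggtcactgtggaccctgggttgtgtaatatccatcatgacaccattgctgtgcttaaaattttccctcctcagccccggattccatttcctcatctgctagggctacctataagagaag

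Of the 9 genes, 7 had a promoter in the RefSeq table; Ccl4 and Ccl5 did not. The kappaB letters were found in 5 of the 7, and in 7.25% of 32851 mouse promoters of the same length. Cxcl3 and Cxcl2 held the same run, GGGAATTTCC, beginning 73 and 97 bases before the start. In Ccl20 the match, on the opposite strand and read here as GGAAAACCCC, began 80 bases before the start, and in Ccl1 GGGAAGTTCC began 196 bases before it. Cxcl10 held kappaB matches at 159 and 104 bases before its start, an interferon-response match at 213 bases and an AP-1 match at 74 bases. The last 2 motifs are in 2.98% and 6.75% of all promoters. Xcl1 and Ccl3 held none of the 3 motifs in this window, which says only that these letters are not there.

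The 9 genes lie on 3 chromosomes of build mm10, in part side by side. Ccl3 (NM_011337, chromosome 11, 83647843 to 83649378, minus strand), Ccl4 (NM_013652, chromosome 11, 83662584 to 83664683, plus strand) and Ccl5 (NM_013653, chromosome 11, 83525779 to 83530518, minus strand) lie in 1 stretch, with Ccl1 (NM_011329, chromosome 11, 82176666 to 82179812, minus strand) further off. Cxcl3 (NM_203320, chromosome 5, 90786101 to 90788093, plus strand), Cxcl2 (NM_009140, chromosome 5, 90903899 to 90905938, plus strand) and Cxcl10 (NM_021274, chromosome 5, 92346639 to 92348889, minus strand) share another chromosome. Xcl1 (NM_008510, chromosome 1, 164931644 to 164935522, minus strand) and Ccl20 (NM_001159738, chromosome 1, 83116766 to 83119167, plus strand) lie apart. Ccl3 with Ccl4, and Cxcl2 with Cxcl3, are related copies whose reads the authors' counting could split, so the division within each pair is uncertain. Cxcl10 lies inside the span of Art3 on the other strand, and the use of strand is not stated. Cxcl10 reads amounted to between 73.5% and 94.2% of those given to Art3. Art3 held 11 to 96 reads per library (median 48) beyond the number given to Cxcl10, which was 89 to 681. Within the span of Cxcl10 the reads of the 2 genes could not be told apart.

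Values are TPM, a length-scaled share of each library's transcripts, and depth recovered from them was 6765529 to 17860611 reads in genes per library. Of the sort label's own markers, 8 CD4 T cell genes summed to between 1367 and 1905 TPM in every library. Markers of other cells were present as well: epithelial markers summed to at most 59.0 TPM, those of CD8 T, natural killer and innate lymphoid cells to at most 150.3 TPM, and those of B and plasma cells to between 95.8 and 272 TPM in SPF isotype but at most 8.82 TPM in SPF aCD3. GF isotype M4 stood apart, with Cd8a at 60.0 TPM against at most 6.997 TPM in the other GF isotype libraries; without it the calls of all 9 genes between the isotype groups and within GF mice were the same. Neutrophil markers stood apart in SPF aCD3 F1 (S100a8 65.5 TPM, 8 genes summed 99.9 TPM) and less in GF aCD3 M5 (S100a8 6.93 TPM, summed 10.7 TPM), against at most 1.81 TPM summed in any isotype library. The sample numbers in the column names were 1 to 6 for SPF isotype, 7 to 12 for SPF aCD3 and 25 to 33 or 48 to 54 for GF, so neither flora nor, in SPF mice, treatment can be told apart from sample number. In both GF sets the isotype libraries also had the lower numbers. Nothing in the sources says that replicates were separate animals, so p-values measure the spread between these libraries. In the limma fit used below, each gene had 1 estimate of spread shared by all groups. A wide group such as GF aCD3 therefore also enters the SE of comparisons without it, and narrower groups enter its own. In RNA from sorted pools, fewer cells making a transcript and less of it per cell cannot be told apart.

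In SPF isotype mice Ccl5 dominated the list. Its median was 376 TPM, followed by Cxcl10 at 114 TPM, Xcl1 at 75.4 TPM, Ccl4 at 49.3 TPM and Ccl3 at 30.5 TPM. The ranges of Cxcl10, Xcl1, Ccl4 and Ccl3 overlapped from each to the next in this order, while Ccl5 stood above all and Ccl3 above the rest. Ccl20 followed at 7.13 TPM, then Cxcl3, Cxcl2 and Ccl1, with medians of 2.27, 2.05 and 1.80 TPM. Ccl20, at 4.51 to 10.0 TPM, overlapped with Cxcl3 but lay above every value of Cxcl2 and Ccl1, while Cxcl3, Cxcl2 and Ccl1 overlapped with one another. In SPF aCD3 the order changed to Ccl4 at 453 TPM, Ccl3 at 421 TPM and Ccl5 at 350.3 TPM, with overlapping ranges, and Xcl1 had moved from the third place to the seventh. Ccl3 and Ccl4 made 11.6% of the summed TPM of the 9 genes in SPF isotype (median, range 4.85% to 18.8%) and 63.7% in SPF aCD3 (51.5% to 75.9%). The sum itself went from a median of 699 TPM to 1403 TPM. In GF isotype Ccl5 again led with 448 TPM, followed by Xcl1 at 110.3 TPM, Cxcl10 at 97.1 TPM and Ccl4 at 40.2 TPM. In GF aCD3 the medians were 309 TPM for Ccl5, 152 TPM for Ccl4, 113 TPM for Ccl3, 88.3 TPM for Xcl1 and 59.1 TPM for Cxcl10, and all neighbours among these 5 overlapped.

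**Figure D1:**
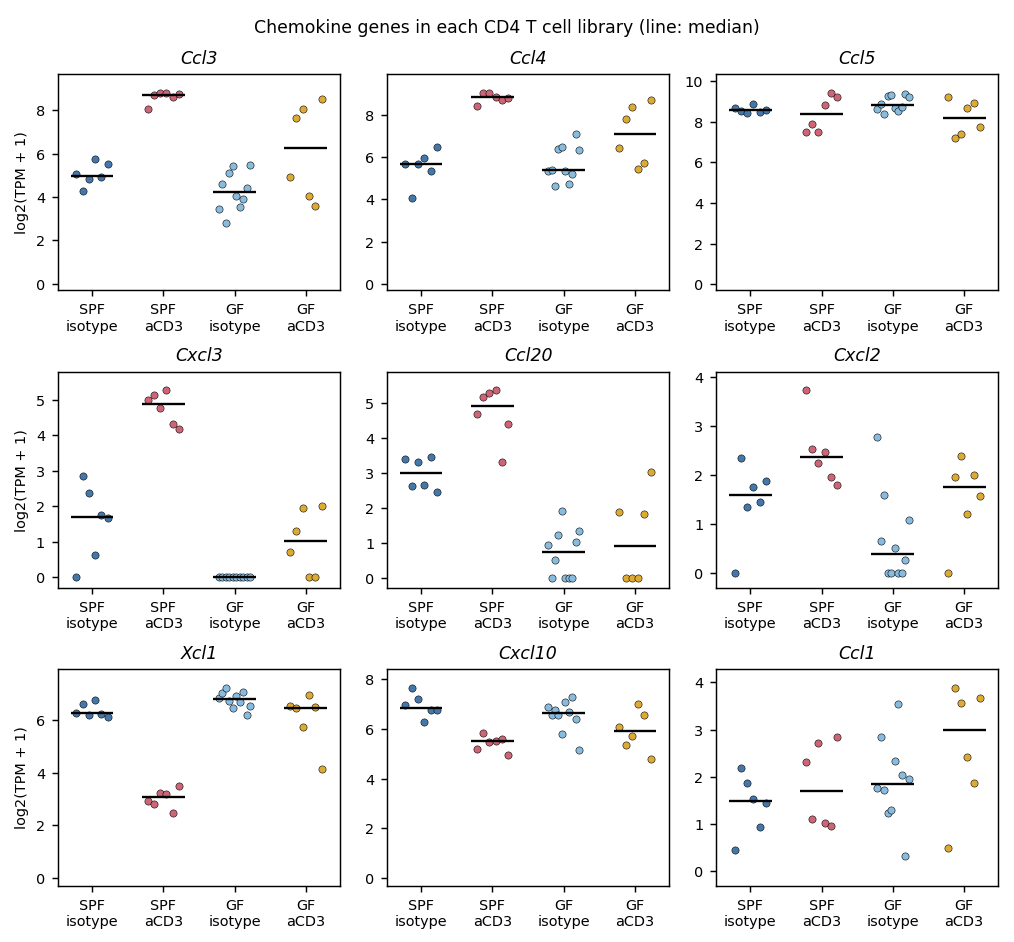
Each point is 1 library, the black line the group median, and the vertical axis log2(TPM + 1), with the SPF groups to the left of the GF groups and each isotype group before its aCD3 group. Ccl3, Ccl4 and Cxcl3 lie above the SPF isotype range in all 6 SPF aCD3 libraries, Xcl1 and Cxcl10 lie below it, and Cxcl3 is at 0 in all 10 GF isotype libraries.

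How the antibody changed chemokine transcripts in colonised mice was read by comparing the SPF groups. Ccl3, Ccl4, Cxcl3 and Ccl20 rose, Xcl1 and Cxcl10 fell, and Cxcl2, Ccl5 and Ccl1 did not pass the test. Thus 6 of 9 genes passed a limma adjusted p of 0.05 over 12182 tested genes, where 64.8% of all tested genes did (14.2% higher and 50.7% lower), so the share that changed is close to the background. The median of all genes was -0.35 on the log2 scale, and -0.01 after scaling libraries by the median of ratios. Under that scaling 7307 genes passed, 3679 higher and 3628 lower, against 1726 higher and 6172 lower as deposited. All 6 members kept their direction and their call under it. The members were chosen with results known, and their p-values are not independent evidence.

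Ccl3 and Ccl4, which recruit macrophages and T cells, rose in every treated library. Ccl3 ran from 18.6 to 52.8 TPM in SPF isotype (median 30.5) and from 266 to 443 TPM in SPF aCD3 (median 421). Every treated library held more than every control, a mean change from 34.2 ± 12.5 to 397 ± 66.5 TPM (SD, n = 6 each). This was 11.6-fold, with a log2 fold change on the log2(TPM + 1) scale of 3.56 (SE 0.64, limma adjusted p = 5.23e-05).

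Ccl4, encoded near Ccl3, ran from 16.0 to 87.0 TPM in SPF isotype (median 49.3) and from 333 to 517 TPM in SPF aCD3 (median 453). The groups did not overlap, and the mean went from 50.3 ± 23.6 to 448 ± 68.3 TPM (SD, n = 6 each), 8.90-fold. The log2 fold change was 3.27 (SE 0.49, limma adjusted p = 9.67e-06). Groups did not overlap for 41.9% of tested genes, 8.57% higher and 33.4% lower in the treated group. Ccl3 and Ccl4 were both lowest among SPF aCD3 in F1, the library with neutrophil transcripts, and without F1 and GF aCD3 M5 their log2 fold changes were 3.64 and 3.33. Macrophages also make both chemokines, and 12 myeloid markers summed to between 10.2 and 27.97 TPM in SPF isotype and between 61.9 and 108 TPM in SPF aCD3. Of these, Cd68 ran from 0 to 9.84 and from 54.4 to 106 TPM, while the other 11, a division made after the values were seen, summed to between 10.2 and 18.4 TPM and between 1.88 and 7.50 TPM, with C1qa and C1qb at 0 in all SPF aCD3 libraries. The part of myeloid cells was not tested.

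Ccl5, a ligand of Ccr1 and Ccr3, held a wider spread after treatment. It ran from 351 to 471 TPM in SPF isotype and from 177 to 681 TPM in SPF aCD3, with means of 389 ± 44.7 and 388 ± 219.7 TPM (SD, n = 6 each). The fitted log2 change was -0.21 (SE 0.33, limma adjusted p = 0.596), and 0.20 after scaling by median of ratios. In SPF aCD3 the 3 female libraries held 179, 239 and 177 TPM and the 3 male libraries 461, 681 and 588 TPM. The sexes did not overlap, and the females lay below every SPF isotype library. Their sample numbers also ran apart, 7 to 9 for females and 10 to 12 for males, so sex and sample number cannot be told apart here. The difference of male minus female was 1.53 on the log2 scale with a two-sided exact permutation p = 0.1, the smallest that 3 against 3 allows. In SPF isotype the same difference was 0.10 (exact permutation p = 0.6) and in GF isotype 0.01 (5 against 5, exact permutation p = 0.976). In GF aCD3 the order was the opposite: the only female library held 599.6 TPM and the 5 male libraries 147 to 492 TPM, and with 1 female no test was made. That library, F1, had sample number 54, and the GF isotype libraries numbered 48 to 54 held 595 to 670.3 TPM. Its Lag3, a receptor of activated T cells, was at 9.59 TPM, inside the GF isotype range of 5.41 to 18.5 TPM. With 1 female library, sex cannot be told apart from these. A fit with the sex difference in SPF aCD3 set against that in SPF isotype, chosen after these values were seen, gave 1.43 for Ccl5 (SE 0.53, limma adjusted p = 0.534). That fit called 0 of 12182 genes, with 924 at an unadjusted p under 0.05.

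**Figure D2:**
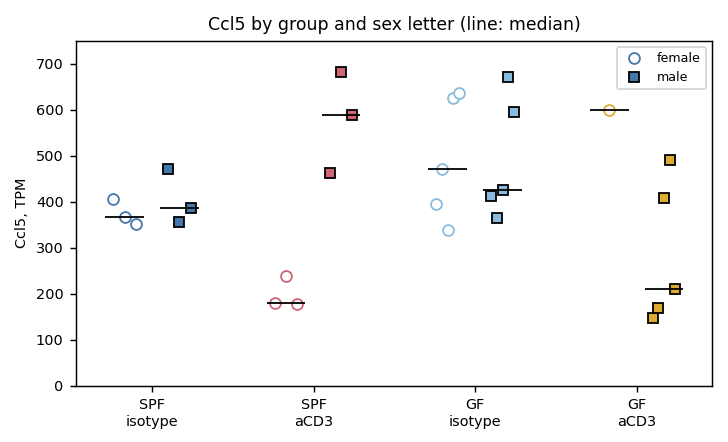
Ccl5 in TPM on a linear axis from 0, 1 point per library, by group and by the sex letter of the sample title (open circles female, filled squares male, lines medians). The female and male points separate in SPF aCD3, at 177 to 239 against 461 to 681 TPM, and overlap in SPF isotype and GF isotype. In GF aCD3 the single female point, at 599.6 TPM, lies above all 5 male points, at 147 to 492 TPM. With 1 female library, sex cannot be told apart there from sample number.

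Among the neutrophil attractants, Cxcl3 was nearly silent in control mice. It ran from 0 to 6.30 TPM in SPF isotype (median 2.27) and from 17.3 to 37.6 TPM in SPF aCD3 (median 28.6), with no overlap. The mean went from 2.59 ± 2.34 to 27.6 ± 8.20 TPM (SD, n = 6 each), 10.6-fold, on 52 and 614 reads over each group. On the log2(TPM + 1) scale this was 3.24 (SE 0.38, limma adjusted p = 1.04e-06).

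Cxcl2 shares the receptor of Cxcl3 and its kappaB letters, but its groups overlapped. It ran from 0 to 4.11 TPM in SPF isotype (median 2.05) and from 2.45 to 12.3 TPM in SPF aCD3 (median 4.16). The mean went from 2.07 ± 1.36 to 5.13 ± 3.61 TPM (SD, n = 6 each), on only 43 and 114 reads. The log2 fold change was 1.00 (SE 0.47, limma adjusted p = 0.0628); it was 1.33 after scaling by median of ratios (limma adjusted p = 0.0146), past the threshold. Its highest value, 12.3 TPM, was in F1, the library with S100a8 at 65.5 TPM, and the next was 4.81 TPM. Without F1 and GF aCD3 M5 the log2 fold change was 0.74 (limma adjusted p = 0.183). Leaving out GF isotype F1 or GF aCD3 F1, which are outside this comparison but share its spread, gave limma adjusted p = 0.0324 and 0.0415. The log2 fold change stayed at 1.00 in both.

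Ccl20, the ligand of Ccr6, rose with some overlap. It ran from 4.51 to 10.0 TPM in SPF isotype (median 7.13) and from 8.90 to 40.5 TPM in SPF aCD3 (median 30.1), where 5 of 6 libraries lay above the control range and M2 within it. The mean went from 7.27 ± 2.49 to 27.96 ± 12.2 TPM (SD, n = 6 each), 3.85-fold. The fitted log2 change was 1.72 (SE 0.45, limma adjusted p = 0.00168). With a pseudocount of 0.1 it was 1.84 and no longer passed (limma adjusted p = 0.104). Gut epithelium is a known source of Ccl20, and 11 epithelial markers summed to between 8.20 and 18.0 TPM in SPF isotype and between 5.09 and 10.1 TPM in SPF aCD3, with Fabp1 at 0 in all of the latter. Their part in the rise of Ccl20 was not tested.

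Xcl1, which draws the Xcr1-bearing dendritic cells that present antigen to CD8 T cells, showed the steepest fall. It ran from 68.1 to 109 TPM in SPF isotype (median 75.4) and from 4.59 to 10.2 TPM in SPF aCD3 (median 7.38). All treated libraries lay below all controls, and the mean went from 83.1 ± 16.3 to 7.29 ± 1.97 TPM (SD, n = 6 each), 11.4-fold lower. On the log2(TPM + 1) scale this was -3.36 (SE 0.30, limma adjusted p = 1.09e-07). Natural killer and innate lymphoid cells also make Xcl1, and the summed level of 11 markers of CD8 T, natural killer and innate lymphoid cells ran from 88.8 to 127 TPM in SPF isotype and from 41.8 to 58.8 TPM in SPF aCD3. The sum joins markers that went opposite ways. Mean levels were lower in SPF aCD3 for the natural killer markers Klrb1c (21.5 to 2.55 TPM), Klrk1 (11.1 to 1.58 TPM) and Ncr1 (3.91 to 0.24 TPM), and higher for the CD8 chains Cd8a (8.01 to 15.0 TPM) and Cd8b1 (0.68 to 1.42 TPM). No marker was at 0 in every library of a group. Their part in the fall of Xcl1 was not tested.

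Cxcl10 ran from 76.9 to 195 TPM in SPF isotype (median 114) and from 29.5 to 55.5 TPM in SPF aCD3 (median 43.8), again without overlap. The mean went from 125 ± 41.0 to 42.5 ± 9.10 TPM (SD, n = 6 each), 2.94-fold lower. The log2 fold change was -1.50 (SE 0.32, limma adjusted p = 0.000308), and -1.10 after scaling by median of ratios. Myeloid and stromal cells can make Cxcl10 too. The 12 myeloid markers summed to more beside it, with medians of 21.5 TPM in SPF isotype and 81.7 TPM in SPF aCD3, Cd68 going one way and the sum of the others the other, as given above with Ccl3 and Ccl4. The 9 stromal and endothelial markers summed to between 15.3 and 51.5 TPM in SPF isotype and between 3.29 and 6.38 TPM in SPF aCD3, Col1a2 being at 0 in all of the latter. B and plasma cell markers (8 genes) ran from 95.8 to 272 TPM and from 2.57 to 8.82 TPM. Their part in the change of Cxcl10 was not tested.

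Ccl1, the ligand of Ccr8, was low in both groups, from 0.37 to 3.55 TPM in SPF isotype and from 0.94 to 6.16 TPM in SPF aCD3, on 60 and 111 reads. The fitted log2 change was 0.42 (SE 0.53, limma adjusted p = 0.493).

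The same question was asked in mice without a flora, GF aCD3 against GF isotype. None of the 9 genes passed the test, where 7.08% of tested genes did (2.46% higher, 4.61% lower). Of all genes called, 300 were higher and 562 lower, or 685 and 490 after scaling by median of ratios. All 9 members had groups that overlapped, and groups without overlap were rare here, at 0.0657% of tested genes (0.0328% higher and 0.0328% lower). The median of all genes was -0.15 as deposited. No gene had an adjusted p below 0.0481 by limma, so calls here sit close to the threshold. Log2 fold changes were 1.72 for Ccl3 (SE 0.60, limma adjusted p = 0.0603), 1.27 for Ccl4 (SE 0.46, 0.0657), 1.04 for Cxcl3 (SE 0.35, 0.0566) and -0.78 for Ccl5 (SE 0.31, 0.0820). The other log2 values were -0.67 for Xcl1, 0.61 for Ccl20, 0.86 for Cxcl2, 0.64 for Ccl1 and -0.52 for Cxcl10.

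These values hid a wide spread between GF aCD3 libraries, seen outside the chemokines as well. Lag3, an inhibitory receptor of activated T cells, ran from 505 to 825 TPM in SPF aCD3 and from 9.50 to 18.5 TPM in SPF isotype. In GF aCD3 it held 498 TPM in M1, 452 in M2 and 527 in M5, but 9.59 in F1, 17.03 in M3 and 12.3 in M4, where GF isotype ran from 5.41 to 18.5 TPM. Thus 3 of 6 GF aCD3 libraries lay inside the isotype range of a gene that stood above it in every SPF aCD3 library; the cause was not tested. Ccl3 held 197 TPM in M1, 267 in M2 and 370 in M5, but 29.6 in F1, 15.8 in M3 and 10.9 in M4. The GF isotype range was 6.08 to 43.9 TPM, so 3 libraries lay above it and 3 inside it, and the mean was 148 ± 152 TPM (SD, n = 6) against 21.995 ± 13.6 TPM (n = 10). Within sample numbers 48 to 54, its own set, M4 lay below the GF isotype range of 20.6 to 43.9 TPM, while F1 and M3 lay inside theirs. Ccl4 held 219.8 TPM in M1, 326 in M2 and 412 in M5, and 84.6 in F1, 42.4 in M3 and 51.5 in M4, where GF isotype ran from 24.0 to 136 TPM, or to 88.9 TPM without M4, the GF isotype library with Cd8a at 60.0 TPM. The high and the low libraries were those of Ccl3. The marker Cd68 held 44.2, 46.7 and 58.0 TPM in M1, M2 and M5 and 13.1, 8.33 and 9.34 TPM in F1, M3 and M4. The other 11 myeloid markers did not follow that division: they summed to between 2.84 and 15.4 TPM in GF aCD3 (median 6.42), highest in M4, against a median of 10.6 TPM in GF isotype. The part of myeloid cells was not tested.

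Ccl5 went the other way in the same libraries. It held 147 TPM in M1, 169.8 in M2 and 211 in M5, all below the GF isotype range of 338 to 670.3 TPM. F1, M3 and M4 held 599.6, 408 and 492 TPM, inside that range. Within sample numbers 48 to 54, its own set, M4 lay below the GF isotype range of 595 to 670.3 TPM. F1 and M3 lay inside the ranges of their sets. The share of Ccl3 and Ccl4 in the sum of the 9 genes accordingly ran from 8.06% to 73.8% over the GF aCD3 libraries, against 4.79% to 15.9% in GF isotype.

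Ccl1 held 13.8 TPM in M1, 10.7 in M2 and 11.7 in M5, against 0.41 in F1, 4.34 in M3 and 2.66 in M4. The first 3 lie above the highest GF isotype library of 10.6 TPM, a margin of few reads. Cxcl10 held 39.8, 51.8 and 26.4 TPM in M1, M2 and M5 and 66.3, 128 and 93.7 TPM in F1, M3 and M4, and GF isotype ran from 33.9 to 154 TPM.

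Xcl1 was lower in the same 3 libraries, though M1 and M4 lay close together. It held 87.8 TPM in M1, 53.1 in M2 and 16.5 in M5, and 93.2 in F1, 122 in M3 and 88.9 in M4, where GF isotype ran from 72.9 to 147 TPM. M5 was the lowest, and still above the highest SPF aCD3 library of 10.2 TPM. The mean was 77.0 ± 36.9 TPM (SD, n = 6) against 111 ± 23.0 TPM (n = 10) in GF isotype. Without M5 and SPF aCD3 F1, the libraries with neutrophil transcripts, the log2 fold change of Xcl1 was -0.30 in place of -0.67. The 11 markers of CD8 T, natural killer and innate lymphoid cells had a median sum of 76.4 TPM in GF aCD3 and 109.6 TPM in GF isotype. Means of Klrb1c went from 22.1 TPM in GF isotype to 8.72 TPM in GF aCD3, and Klrk1 from 13.96 to 5.58 TPM. Ncr1 went from 1.22 to 0.77, Cd160 from 56.6 to 42.6, Cd8a from 8.26 to 7.76 and Cd8b1 from 0.91 to 0.90 TPM. Their part in the level of Xcl1 was not tested.

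**Figure D3:**
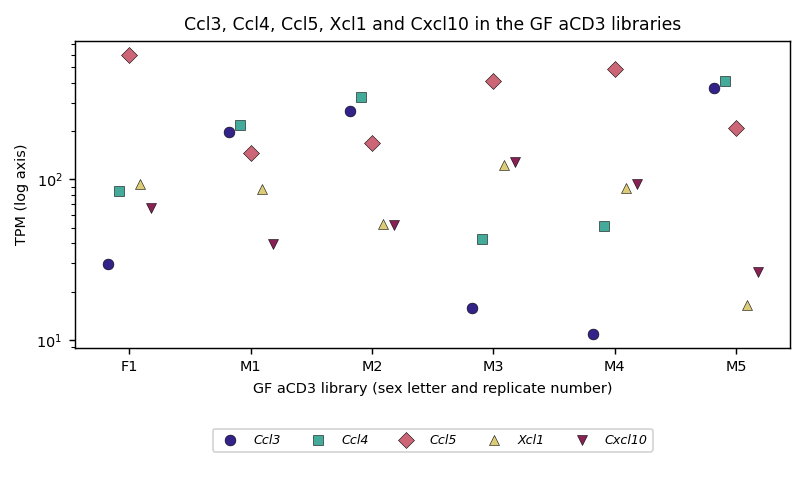
Each marker is the TPM of 1 gene (Ccl3, Ccl4, Ccl5, Xcl1 or Cxcl10) in 1 of the 6 GF aCD3 libraries, on a log axis. In M1, M2 and M5 Ccl3 and Ccl4 lie above Ccl5, and in F1, M3 and M4 Ccl5 lies above both.

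Single libraries decided the calls. Without M3, the 5 genes Xcl1, Cxcl3, Ccl3, Ccl4 and Ccl5 passed the test, and Ccl3 stood at 2.13 (limma adjusted p = 0.0107). Without F1, the 5 genes Cxcl3, Cxcl2, Ccl3, Ccl4 and Ccl5 passed, and Ccl5 stood at -1.14 (limma adjusted p = 0.0114). Without M4, 4 passed, Cxcl3, Ccl3, Ccl4 and Ccl5. Leaving out any other library gave 0 of 9. The count of all genes called went to 4215, 3627 and 3861 without M3, F1 and M4, and to 0 without any other library. The 2 sets of GF sample numbers gave different values: within 25 to 33 (3 aCD3, 6 isotype) the difference in mean log2(TPM + 1) was 2.86 for Ccl3, 2.09 for Ccl4 and -0.87 for Ccl5, and within 48 to 54 (3 aCD3, 4 isotype) it was 0.56, 0.37 and -0.67. Xcl1 differed by -0.57 and -0.76 and Cxcl3 by 1.09 and 0.91. Ccl20 differed by -0.24 and 0.88, opposite in sign.

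The low neutrophil attractants and Ccl20 rested on few reads in GF mice. Cxcl3 held 1.47 TPM in M1, 2.87 in M2, 3.02 in M5, 0.64 in F1 and 0 in M3 and M4, 27 reads in all, where all 10 GF isotype libraries were at 0. Against a floor of 3 reads over the GF isotype group, the GF aCD3 mean was at least 15.9-fold higher. Cxcl2 ran from 0 to 4.20 TPM in GF aCD3 and from 0 to 5.81 TPM in GF isotype. Ccl20 was at 0 in M1, M2 and M3, the libraries with sample numbers 25 to 33. It held 2.67 TPM in F1, 2.54 in M4 and 7.23 in M5, those with 48 to 54. GF isotype held 0 to 0.90 TPM and 1.02 to 2.74 TPM in these 2 sets. M5 was also the library with 6.93 TPM of S100a8.

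Colonised and germ-free mice were also compared without treatment, between their isotype groups. Ccl20 and Cxcl3 were lower in GF and the other 7 genes did not pass the test. Thus 2 of 9 passed, both lower, where 7.17% of tested genes passed, 6.42% higher and 0.755% lower. Both genes were listed because they stood low in GF in the contrast after aCD3, so nothing is read from this share. The median of all genes was 0.15 here; 782 genes were called higher and 92 lower, or 63 and 141 after scaling by median of ratios. Under every alternative run the members called were Ccl20 and Cxcl3. The comparison shares its SPF isotype controls with the first one and its GF isotype controls with the second.

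Ccl20 ran from 4.51 to 10.0 TPM in SPF isotype and from 0 to 2.74 TPM in GF isotype (median 0.66), so that every germ-free library lay below every colonised one. The mean was 7.27 ± 2.49 TPM (SD, n = 6) against 0.79 ± 0.90 TPM (n = 10), 9.19-fold lower, on 184 and 34 reads. The log2 fold change was -2.30 (SE 0.40, limma adjusted p = 0.00115). Over the 38 alternatives it ran from -3.94 to -1.07, past the test in each. Groups did not overlap for 2.63% of tested genes, 2.39% higher and 0.238% lower in GF. Ccl20 was below the SPF isotype range within both sets of GF sample numbers, at 0 to 0.90 TPM in 25 to 33 and 1.02 to 2.74 TPM in 48 to 54, although these sets did not overlap with each other. Epithelial markers summed to between 7.10 and 59.0 TPM in GF isotype, with a median of 20.8 TPM against 11.6 TPM in SPF isotype. Markers of B and plasma cells were lower in GF isotype, with a median of 33.9 TPM against 179.9 TPM, and those of stromal and endothelial cells too, at 7.79 to 14.2 TPM against 15.3 to 51.5 TPM, with no overlap. The myeloid sums had medians of 21.5 TPM in both groups, and those of CD8 T, natural killer and innate lymphoid cells 109.6 TPM in GF isotype and 104.7 TPM in SPF isotype. The part of these cells in the difference was not tested.

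Cxcl3 was at 0 in all 10 GF isotype libraries, and ran from 0 (F1) to 6.30 TPM in SPF isotype. With the floor of 3 reads over the GF group, the SPF isotype mean was at least 30.8-fold higher. The fitted log2 change was -1.55 (SE 0.34, limma adjusted p = 0.00683), a fitted value that depends on the pseudocount. Cxcl3 passed the low-value filter through 13 libraries, 6 of them SPF aCD3 and none GF isotype; the filter was passed by all 9 genes, Ccl20 and Cxcl2 with 19 libraries each and Ccl1 with 23.

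The other 7 genes overlapped between SPF and GF isotype. The log2 values were 0.40 for Xcl1, -0.77 for Cxcl2, -0.78 for Ccl3, 0.17 for Ccl4, 0.31 for Ccl5, 0.50 for Ccl1 and -0.42 for Cxcl10, with adjusted p from 0.247 to 0.834 by limma. GF isotype libraries differed by sample number: Ccl5 ran from 338 to 470.3 TPM in 25 to 33 and from 595 to 670.3 TPM in 48 to 54, and Ccl4 from 24.0 to 40.4 and from 78.2 to 136 TPM (88.9 TPM without M4). SPF isotype stood at 351 to 471 TPM for Ccl5 and 16.0 to 87.0 TPM for Ccl4.

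Set beside each other after aCD3, GF and SPF libraries differed most in Xcl1, Cxcl3 and Ccl20, the genes the list was built on. Xcl1 was 77.0 ± 36.9 TPM in GF aCD3 and 7.29 ± 1.97 TPM in SPF aCD3 (SD, n = 6 each), a log2 value of 3.09 in the fit, with all GF above all SPF. Cxcl3 was 1.33 ± 1.36 against 27.6 ± 8.20 TPM (-3.74) and Ccl20 2.07 ± 2.83 against 27.96 ± 12.2 TPM (-3.41), with all GF below all SPF. These 2 log2 values depend on the processing. With pseudocounts of 0.1 and 5 they were -5.24 and -2.31 for Cxcl3 and -4.98 and -2.11 for Ccl20. With voom they were -5.55 for Cxcl3 and -5.54 for Ccl20. In this contrast 53.3% of tested genes passed limma's adjusted p (48.9% higher, 4.46% lower in GF) and 13% had groups without overlap (12.2% higher, 0.78% lower); with median-of-ratios scaling the calls were 1956 higher and 2032 lower in place of 5953 and 543. Nothing is read from these shares beside genes picked for the contrast. Ccl3 stood at -2.61, Ccl4 at -1.83, Cxcl2 at -0.91, Ccl5 at -0.27, Ccl1 at 0.72 and Cxcl10 at 0.57, all with overlap. For Ccl3 the overlap came from M2 and M5, at 267 and 370 TPM, against 266 TPM in F1, the lowest SPF aCD3 library; the next was 394 TPM.

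**Figure D4:**
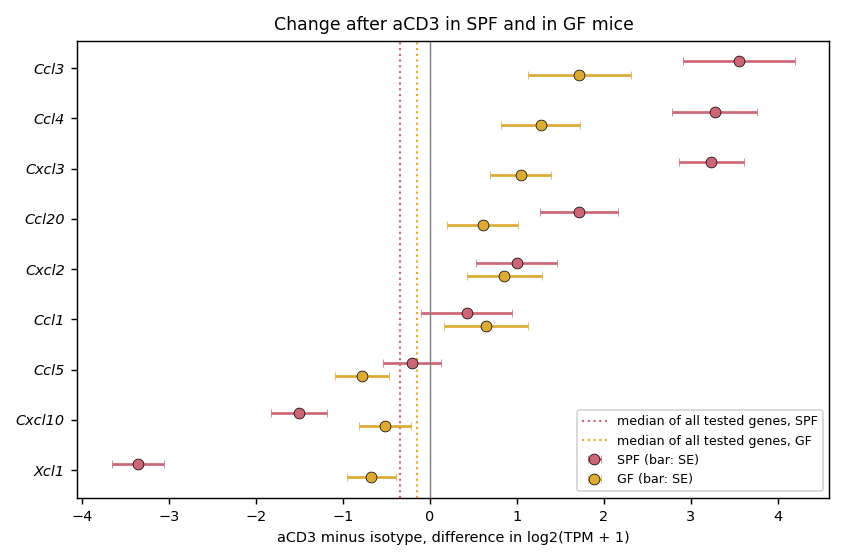
Points are the aCD3 minus isotype difference in log2(TPM + 1) from limma for each gene, in SPF and in GF mice, with bars for the SE and dotted lines for the median of all tested genes (-0.35 in SPF, -0.15 in GF). Xcl1 lies at -3.36 in SPF and -0.67 in GF, and Ccl3 at 3.56 and 1.72.

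The receptors through which these chemokines act were also read in the T cells. Of 23 chemokine receptor genes 18 passed the filter, and 8 were higher and 5 lower in SPF aCD3 than in SPF isotype, where 64.8% of all tested genes were called (14.2% higher, 50.7% lower). Their median log2 value was -0.00 against -0.35 for all genes. Ccr1, a receptor of Ccl3 and Ccl5, rose by 1.96 on the log2 scale (SE 0.39, limma adjusted p = 0.00012), with means of 3.22 ± 1.04 and 16.3 ± 6.94 TPM (SD, n = 6 each). Cxcr3, the receptor of Cxcl10, fell by 1.89 (SE 0.29, limma adjusted p = 1.07e-05), with means of 395 ± 47.7 and 106 ± 16.9 TPM. Ccr8, the receptor of Ccl1, passed narrowly at 1.22 (SE 0.54, limma adjusted p = 0.0499), a call lost when any 1 of 16 libraries was left out. Xcr1 (-0.56, limma adjusted p = 0.209), Ccr6 (-0.63, 0.110) and Ccr3 (0.30, 0.269) did not pass, and Cxcr2 was too low to be tested. Outside the members' own receptors, the homing receptor Ccr7 stood at 1.59, Cxcr4 at 1.48 and Ccr4 at -1.42, all past the test.

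In GF mice after aCD3, Ccr7 was higher (1.51, limma adjusted p = 0.0499) and Cxcr3 lower (-0.89, limma adjusted p = 0.0488), calls lost when any 1 library other than GF aCD3 F1, M3 or M4 was left out. Cxcr3 held 137 TPM in M1, 102 in M2 and 100.2 in M5, near the SPF aCD3 range of 86.5 to 124 TPM, and 523, 364 and 429.5 TPM in F1, M3 and M4. Between the isotype groups Ccr6 was lower in GF, like its ligand Ccl20, from 8.45 ± 2.33 TPM (SD, n = 6) to 3.37 ± 2.17 TPM (n = 10; -1.24, SE 0.31, limma adjusted p = 0.0176). Ccr7 (-1.83), Cxcr5 (-1.11) and Ackr3 were lower too and Cxcr6 higher (0.45), the last not with median-of-ratios scaling. Without SPF isotype F3, Ccr6 and Cxcr5 no longer passed (limma adjusted p = 0.0537 and 0.0542). No receptor was called for a difference of the aCD3 effect between GF and SPF, where 3.48% of tested genes were (2.44% higher, 1.04% lower); with median-of-ratios scaling calls were made, among them Ackr3, which was lower.

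**Figure D5:**
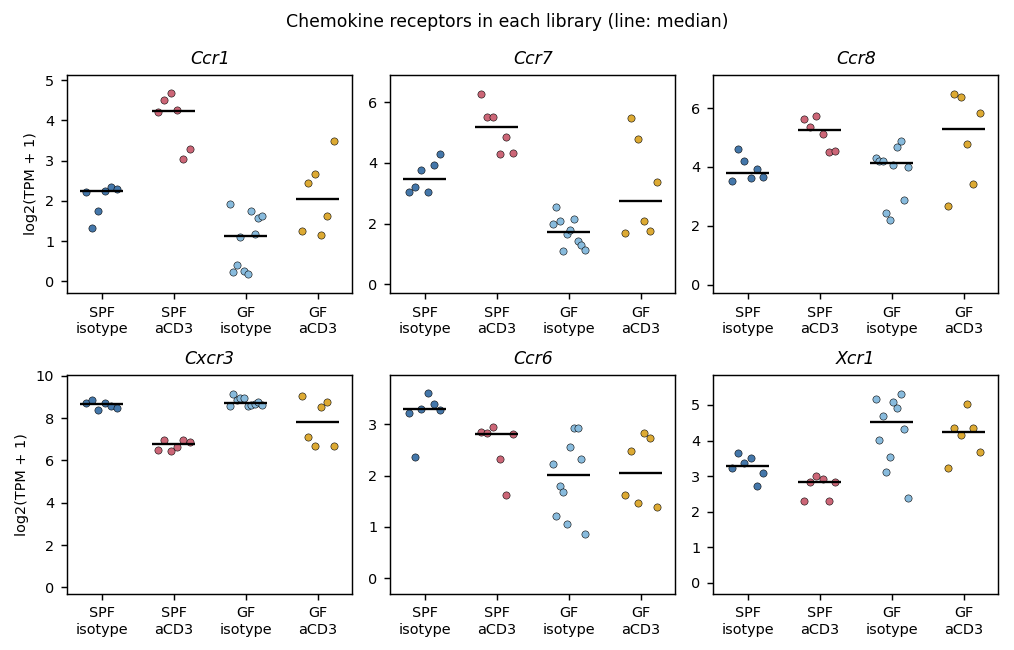
Each point is 1 library and the black line the group median, in log2(TPM + 1), for the receptors Ccr1, Ccr7, Ccr8, Cxcr3, Ccr6 and Xcr1. Cxcr3 lies at 86.5 to 124 TPM in SPF aCD3 against 328 to 458 TPM in SPF isotype, and the GF aCD3 libraries spread over both ranges.

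Factors known to act on chemokine promoters were counted in the same way. All 26 of the list were tested, with 5 higher and 16 lower in SPF aCD3 than in SPF isotype, where 14.2% of all tested genes were higher and 50.7% lower. The median was -0.62 against -0.35 for all genes, and with median-of-ratios scaling 7 were higher and 13 lower. The AP-1 genes Fos (-2.41), Jun (-2.39), Junb (-2.33) and Fosb (-1.88), which are induced early after receptor engagement, were the lowest, and the NF-kappaB genes Rela (-0.61), Relb (-1.15), Nfkb1 (-1.04) and Nfkb2 (-0.73) also fell. Irf8 was higher, from 3.24 ± 0.57 to 9.84 ± 1.18 TPM (SD, n = 6 each; 1.36, limma adjusted p = 6.8e-06). In GF mice 4 of the 26 fell, Fos, Fosb, Jun and Irf1 (Fosb not with median-of-ratios scaling), and none rose, where 4.61% of all tested genes were lower and 2.46% higher. Like the 2 receptors, their calls were lost when any 1 of the other 25 libraries was left out. Between the isotype groups Jun was lower in GF (-1.42, SE 0.23, limma adjusted p = 0.000624), while Irf8 (0.68), Tbx21 (0.47) and Nfatc1 (0.46) were higher, these 3 neither with median-of-ratios scaling nor without SPF isotype F3.

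Other chemokine genes were scarcely present. Of 29 further ligands, 22 had a mean under 1 TPM in every group and 3 were at 0 in all libraries. The filter was passed by 4 (Ccl21a, Ccl25, Ccl27a and Cxcl16), of which 0 were called in any comparison by limma, where 64.8% of tested genes were called in SPF aCD3 against SPF isotype, 7.08% in GF aCD3 against GF isotype and 7.17% between the isotype groups. With no low-value filter 26 ligands were tested. Cxcl5 was then called higher and Ccl11 and Cxcl12 lower in SPF aCD3, and Ccl11 and Cxcl12 were called lower in GF isotype than in SPF isotype. Cxcl5 was also called lower in GF aCD3 than in SPF aCD3, and Ccl11 and Cxcl12 for a higher aCD3 effect in GF than in SPF. Their highest group means were 1.33 TPM for Cxcl5, 1.15 TPM for Ccl11 and 2.43 TPM for Cxcl12.

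Genes whose levels were most like those of each chemokine were ranked by Pearson's r of log2(TPM + 1) over the 28 libraries, as a description that shares the group differences. Ccl3 was most like Ly6a (r = 0.94), Zfp52 and Havcr2, and Ccl4 most like Grn (0.95), Sema7a and Tigit. Xcl1 was most like Max (0.96), Cd226 and Dusp6, and Cxcl10, after Art3, most like Tnfaip3 (0.91). Ccl5 was most like Heatr9 (0.88), its neighbour on the chromosome, and Ccl20 most like Ackr3 (0.90). Cxcl3 was most like Pcdhgc3 (0.92) and other genes of a cluster whose spans overlap, Cxcl2 most like Eno1b (0.82) and Ccl1 most like Il5 (0.78). With group means taken out, Sema7a led for Ccl3 (0.92), Grn for Ccl4 (0.86), Gpr55 for Ccl5 (0.88) and Rgs16 for Ccl1 (0.78), with Ccr8, the receptor of Ccl1, next but 1 at 0.77.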

How the data were processed

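RNA of sorted small intestinal CD4+ T cells was sequenced with a total RNA kit, per the labels, although another label names polyA RNA. The authors deposited TPM, computed per the file headers with HOMER's analyzeRepeats.pl on mm10 with transcripts condensed per gene. In 99.24% of rows the length is the genomic span with introns, and the sources used here do not give the aligner's settings or the use of strand. Another 26 TPM columns match no sample and were not used. TPM times length was a whole multiple of a step in 100% of low values (within 0.1 read), which gave reads per gene; floors of 3 reads cover counting error only.

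The 12182 genes that reached 1 TPM in 6 or more libraries were fitted with limma 3.58.1 under R 4.3.3. The response was log2(TPM + 1) of all 28 libraries, the terms were group and sex, moderation used a trend, and Benjamini-Hochberg adjusted p under 0.05 counted as passed. Single-gene sex differences used exact permutation tests in SciPy 1.17.1 (Python 3.11.15). The log2(TPM + 1) scale understates changes of low genes. The fit was tested on simulated data with known changes. No 2 libraries held identical values.

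Members and lists were chosen with earlier results of these data known. Named by rule, except for genes whose results are not reported here, were all 9 members, their receptors and, per list, up to 5 genes with the largest called change and a mean of at least 5 TPM in a group. The remaining genes of the factor list that are named, the single markers, Lag3, Ackr3 and the other chemokine ligands named were chosen after their values were seen. Promoter motifs were searched on both strands of 250 bases. Alternatives were pseudocounts of 0.1 and 5, no filter or TPM of at least 5, median-of-ratios scaling, voom on the recovered reads, no sex term, a replicate block, a term for GF sample numbers, leaving out each library, and, added after seeing the data, leaving out the 2 libraries with neutrophil transcripts.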

Additional observations from a re-analysis of the deposited data

Results flagged for a closer look

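Ccl3 in SPF aCD3 F1, at 266 TPM, lay far from the other 5 libraries of its group, which held 394 to 443 TPM. This was the only such gap among 35 sets of values examined, where chance gives about 1.75. F1 is the library with the highest neutrophil markers (S100a8 65.5 TPM); their part in the value was not tested.

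The effect of aCD3 differed between GF and SPF mice for 2 of 26 factors of the promoter list, both higher in GF, by the test of the difference itself, where 3.48% of all tested genes differed (2.44% higher, 1.04% lower). For Fos it was higher in GF by 1.50 on the log2 scale (SE 0.33) and for Jun by 1.55 (SE 0.35), both with a limma adjusted p = 0.0218. In SPF mice, Fos averaged 2635 ± 331 TPM with isotype and 495 ± 53.5 TPM with aCD3 (SD, n = 6 each), against 1677 ± 489 TPM (n = 10) and 993 ± 468 TPM (n = 6) in GF. Without GF aCD3 F1 neither passed, at 1.39 for Fos (limma adjusted p = 0.0757) and 1.50 for Jun (0.0708). The GF aCD3 mean joins libraries with Lag3 at 452 to 527 TPM (M1, M2, M5) and at 9.59 to 17.03 TPM (F1, M3, M4). The part of this division in the difference was not tested. Other factors passed under some settings: Junb (higher) and Irf8 (lower) with a pseudocount of 0.1, median-of-ratios scaling, voom, the term for GF sample numbers and without the 2 libraries with neutrophil transcripts, Fosb (higher) with these except median-of-ratios scaling and also with no sex term, and Nfatc3 (lower) with median-of-ratios scaling and voom. Rel (higher) passed with the term for GF sample numbers, and Relb, Nfkb1, Nfkb2, Nfatc2 (higher) and Irf7 (lower) without the 2 libraries.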

How the results depend on the processing

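Of the 5 counts of genes past the threshold, that of SPF aCD3 against SPF isotype (7898) stayed within 1.5 times under every alternative, from 7414 to 8057 when 1 library was left out. The count for GF aCD3 against GF isotype (862) was 0 with a pseudocount of 0.1 (4339 genes at an unadjusted p under 0.05 by limma), with no low-value filter (4963), with the replicate block (4146) and without the 2 libraries with neutrophil transcripts (2426), 2472 with no sex term, 2215 with a term for GF sample numbers, and 0 to 4215 with 1 library left out. That for GF isotype against SPF isotype (874) was 204 with median-of-ratios scaling, 225 with voom, and 322 (without SPF isotype F3) to 1137 with 1 library left out. That for GF aCD3 against SPF aCD3 (6496) was 3988 with median-of-ratios scaling, and 4886 to 7226 with 1 library left out. The count for the difference of the aCD3 effect (424) was 774 and 273 with pseudocounts of 0.1 and 5, 233 with no filter, 1381 with median-of-ratios scaling, 1824 with voom, 162 with the replicate block, 2721 without the 2 libraries, and 32 to 3187 with 1 library left out. The causes were not tested. Cxcr6 reversed from -0.31 to 0.11 in SPF under median-of-ratios scaling and under voom, where it was not called.

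Of the members, Xcl1, Cxcl3, Ccl3, Ccl4 and Cxcl10 in SPF kept their calls under all 38 alternatives and Ccl20 under 37. Cxcl2 in SPF passed in 7 of 37. In GF, Cxcl3 also passed with voom, Cxcl3 and Ccl5 with the term for sample numbers, and Cxcl3, Ccl3 and Ccl4 with no sex term. Samples that share a replicate name did not deviate together (correlations -0.21 to 0.20), so they share only a number; the replicate block gave 7794, 0, 658, 5715 and 162 calls in the order above and the same member calls, 6, 0 and 2. Cxcl3, Ccl20, Cxcl2 and Ccl1 rest on few reads, which limits their precision.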
